A study of Mus musculus with 9 samples.

Results

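The genes described are 10 members of the unfolded protein response and the integrated stress response: Atf4, Atf3, Ddit3, Trib3, Asns, Chac1, Xbp1, Eif2ak3, Ppp1r15a and Herpud1. They were taken as a list of names out of 49315 genes in the count table, with earlier results of these data known. All 10 had a row there and all 10 passed the filter on low counts, which left 18492 genes for testing. Polyadenylated RNA was sequenced from whole brains of wild-type male C57BL/6J mice, an inbred laboratory strain, and the labels name no transgene and no treatment. The groups were 5 young mice, aged 3 months by the sample labels and 3 or 4 months by the study's methods, and 4 old mice aged 33 months, numbered 1, 3, 4 and 5. Each library came from 1 brain. Between 14229259 and 21150439 counts fell on genes in the young libraries (median 18219839), and between 14285654 and 18742861 in the old (median 17689652). In whole tissue, fewer cells of a type and less RNA per cell cannot be told apart. The comparison asks whether transcripts of these stress pathways differ with age in the mouse brain.

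Secretory and membrane proteins fold in the endoplasmic reticulum (ER), and unfolded protein there activates the sensors PERK (encoded by Eif2ak3), IRE1 (Ern1) and ATF6 (Atf6). PERK phosphorylates the translation factor eIF2, which slows most protein synthesis but favours translation of Atf4 mRNA. Kinases that sense amino acid shortage, haem deficiency or double-stranded RNA act on the same factor, and the shared branch is called the integrated stress response. ATF4 and the factors ATF3 and CHOP (Ddit3) then drive genes of amino acid metabolism and apoptosis, while the spliced form of Xbp1 and ATF6 drive ER chaperones and ER-associated degradation. Counts per gene hold neither eIF2 phosphorylation, nor the choice of Atf4 reading frame, nor the splicing of Xbp1, so those steps were not measured here.

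Members and pathway genes are known to be read by these factors through short promoter elements, and the windows that hold such letters are shown to place the genes in their branches. Promoter sequences came from RefSeq on GRCm38.p6 and covered 250 bases before to 50 bases after each start, and all 10 members matched. In the windows that follow, only bases before the start are written, 5′ to 3′ in the direction of the gene, and capitals mark the matched letters. The CARE core (C/EBP-ATF response element, TGATGNAA on either strand, where N is any base) was found in 5 of 10 members, against 4.51% of 27025 genes with a promoter. It stood 103 to 110 bases before the start in Atf3, 16 to 23 in Asns, 186 to 193 in Chac1 and 105 to 112 in Herpud1, and in Trib3 it lay after the start. The RefSeq start of Atf3 lies inside the annotated span of the gene rather than at its outer end. The ER stress response element II (ATTGGNCCACG) was found in Herpud1 alone among the 10, and in 0.0444% of genes. The longer ER stress response element (ERSE, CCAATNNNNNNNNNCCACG, which shares its CCACG end with element II) and the unfolded protein response element core (TGACGTGG) were found in 0 of 10 members. The ERSE windows of Hspa5 and Dnajc3, both ER chaperone genes, are added because these genes return with the chaperones.
Atf3, chr1:191183420-191183459, minus strand, CARE: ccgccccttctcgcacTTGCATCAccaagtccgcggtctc
Asns, chr6:7693210-7693248, minus strand, CARE: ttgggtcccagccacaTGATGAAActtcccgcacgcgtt
Chac1, chr2:119351033-119351072, plus strand, CARE: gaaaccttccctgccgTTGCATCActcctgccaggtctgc
Herpud1, chr8:94386301-94386340, plus strand, CARE: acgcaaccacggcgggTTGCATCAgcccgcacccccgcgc
Herpud1, chr8:94386361-94386403, plus strand, element II: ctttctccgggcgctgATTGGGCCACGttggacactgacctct
Hspa5, chr2:34772009-34772059, plus strand, ERSE: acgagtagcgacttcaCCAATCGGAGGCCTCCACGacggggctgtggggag
Dnajc3, chr14:118937811-118937861, plus strand, ERSE: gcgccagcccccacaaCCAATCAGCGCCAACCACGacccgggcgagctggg
Such a match is a description of the letters and no evidence of binding.

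None of the 10 genes passed the test between ages: 0 of 10 had an adjusted p under 0.05 (edgeR's quasi-likelihood test, Benjamini-Hochberg over all 18492 genes), where 11.0% of all genes did, 6.20% higher and 4.83% lower in old brains. DESeq2's Wald test called 0 as well, as did limma on the authors' normalized counts and on TPM. Before adjustment, 3 of 10 had a p under 0.05 in edgeR (Chac1, Herpud1 and Asns) and 3 in DESeq2, against 26.0% of all genes in edgeR. Old and young mice did not overlap in 1 of 10 genes (Chac1), against 12.6% of all genes. Log2 fold changes of old against young ran from -0.30 (Chac1) to 0.20 (Trib3), with a median of 0.088 beside -9.2e-05 for all genes. In 8 of 10 the 95% interval of the log2 fold change lay within 0.58 of 0, the size beyond which, together with the adjusted p, 2.68% of all genes were called. Trib3 and Atf3, the genes with the fewest counts, were the exceptions.

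The direction of these small differences depended on the scale. On the count scale 7 of 10 were higher and 3 lower in old brains, whereas on log2(TPM + 1) 2 were higher and 8 lower. TPM values correct counts for the length of each gene and bring all libraries to one sum. On that scale the median of all genes itself shifted by -0.14, and 7 of 10 members lay above that median.

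**Figure D1:**
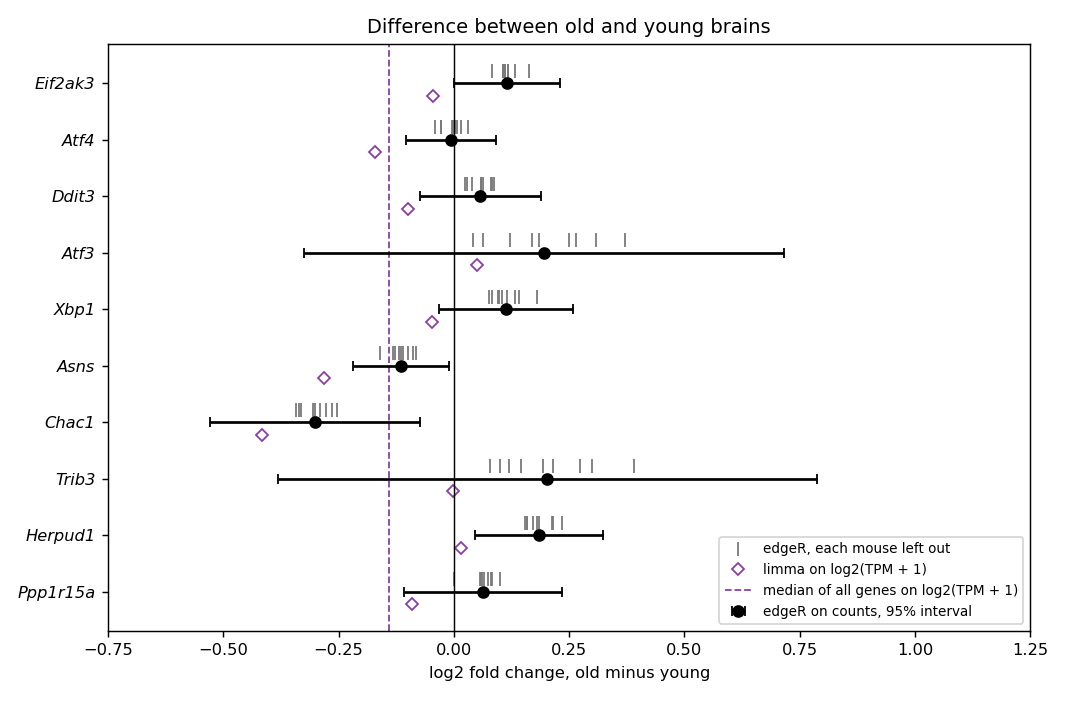
Log2 fold change of old against young brains (horizontal axis) for each of the 10 genes. Black points and bars are edgeR's estimate and 95% interval, grey ticks the estimate with each mouse left out, purple diamonds the estimate on log2(TPM + 1), and the dashed line the median of all genes on that scale (-0.14). The intervals of Asns, Chac1 and Herpud1 exclude 0, and those of Atf3 and Trib3 are the widest.

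Eif2ak3 encodes PERK, the ER kinase of eIF2 (GRCm38 chromosome 6, 70844515 to 70905245). In CPM, counts relative to the TMM-scaled library size, the young mice stood at 29.5, 29.1, 29.1, 31.0 and 29.5, and the old at 32.6, 34.4, 29.0 and 32.6. Of the old mice, 3 lay above every young mouse, while old 4 lay just under the lowest young one. The mean was 29.6 ± 0.797 (SD, n = 5) in young and 32.2 ± 2.27 (SD, n = 4) in old brains. This was a log2 fold change of 0.12 (SE 0.054, 95% interval -0.00050 to 0.23, edgeR adjusted p = 0.195). The adjusted p ranged from 0.0651 (without old 4) to 0.404 with each mouse left out. The gene Gm43292 overlaps Eif2ak3 on the opposite strand over 485 exon bases, and it held at most 15 counts in a library.

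Among the transcription factors, Atf4 was the most even between ages. Atf4 is the common effector of the eIF2 kinases, and its protein is controlled mainly through translation (chromosome 15, 80255184 to 80257541). Young mice had 112, 112, 106, 115 and 115 CPM, and old mice 104, 106, 117 and 120 CPM. Old mice lay on both sides of the young range, 2 above it and 1 below it. The difference was -0.425% with a 95% interval from -6.99% to 6.60% (edgeR adjusted p = 0.953). With 1504 to 2381 counts per library, this was the tightest interval of the 10 genes.

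Ddit3, which encodes the pro-apoptotic factor CHOP, was nearly as even (chromosome 10, 127290774 to 127296288). Its values were 21.2, 20.9, 19.3, 22.4 and 20.9 CPM in young and 20.9, 22.7, 20.5 and 23.3 CPM in old mice, which overlapped. A log2 fold change of 0.057 resulted (95% interval -0.074 to 0.19, edgeR adjusted p = 0.606). The spread of Ddit3 between mice of one age (coefficient of variation 5.29% and 6.17%) was close to that of counting alone (5.18% in both). Exons of Mars and Gm4189 overlap Ddit3 on the opposite strand over 81 bases, and another gene ID of the same symbol shares 105 bases with it on the same strand.

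Atf3, an immediate early factor that ATF4 also drives, was low and variable (chromosome 1, 191170296 to 191218039). Young mice had 1.67, 2.49, 2.06, 2.99 and 1.24 CPM, and old mice 2.55, 3.24, 2.13 and 1.82 CPM. The ages overlapped over most of their range. From 20 to 62 counts per library, its coefficient of variation was 32.8% in young and 25.3% in old mice, above the 16.3% and 15.6% of counting. The log2 fold change of 0.19 had a 95% interval from -0.33 to 0.71 (edgeR adjusted p = 0.664), that is from -20.2% to 64.1%. Among 10 other immediate early genes 6 fell with age (Fos, Egr1, Egr2, Arc, Ier2 and Dusp1), and the summed level of the 10 was 752 to 975 CPM in young and 598 to 702 CPM in old mice. Their part in the values of Atf3 was not tested.

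Xbp1 encodes the factor that IRE1 activates by splicing (chromosome 11, 5520659 to 5525893). Young mice had 64.9, 67.7, 68.7, 84.2 and 71.1 CPM, and old mice 74.7, 72.2, 82.9 and 78.7 CPM. Young 4 was the highest of all 9 mice, and the other 4 young mice lay below all old ones. With all mice the log2 fold change was 0.11 (SE 0.068, edgeR adjusted p = 0.323). With each mouse left out, the adjusted p ran from 0.0341 (without young 4, at 0.18) to 0.571, and 1 of 9 fits passed. Young 4 also stood apart in glial markers, with 627 CPM summed over 4 reactive astrocyte genes. That sum was 256 to 295 CPM in the other young mice and 587 to 838 CPM in old mice. Gfap (514 CPM) and Serpina3n (57.8 CPM) of young 4 lay in the old range, and Osmr (8.74 CPM) between the ages. Vim of young 4 (46.8 CPM) lay among the other young mice (44.6 to 53.3 CPM), below the old (84.6 to 109 CPM). The sum of young 4 over 5 activated microglia genes was 55.2 CPM. The other young mice had 11.2 to 12.97 CPM there, and old mice 51.7 to 77.8 CPM. The part of these cells in the Xbp1 value was not tested.

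The target genes of the list went in both directions. Chac1, which encodes an enzyme that degrades glutathione, was the only member whose ages did not overlap (chromosome 2, 119351229 to 119354381). Young mice had 5.91, 7.30, 6.67, 7.54 and 6.05 CPM, and old mice 5.47, 5.29, 5.80 and 5.17 CPM. Every old mouse was thus below every young mouse, by a narrow margin between old 4 and young 1. The mean was 6.69 ± 0.726 (SD, n = 5) against 5.43 ± 0.276 CPM (SD, n = 4). The log2 fold change was -0.30 (SE 0.106, 95% interval -0.53 to -0.074), a difference of -18.9%, and edgeR's adjusted p of 0.0848 missed the threshold. It lay between 0.0723 and 0.184 with each mouse left out. The estimate rests on 75 to 156 counts per library. The spread of the old mice (5.08%) was smaller than counting alone gives (10.4%), and that of the young (10.9%) was larger (9.16%).

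Herpud1, an ER membrane protein of ER-associated degradation and the member with both a CARE and an element II, leaned the other way (chromosome 8, 94386438 to 94395377). Young mice had 45.2, 45.0, 53.8, 49.2 and 52.7 CPM, and old mice 56.6, 49.5, 59.3 and 57.3 CPM. Old 3 lay inside the young range and the other 3 old mice above it. It differed between ages by 0.18 on the log2 scale (SE 0.065, 95% interval 0.045 to 0.32), or 13.6%, with an edgeR adjusted p of 0.0854. With each mouse left out, the adjusted p ran from 0.0353 (without old 3, at 0.23) to 0.198, and 1 of 9 fits passed. On log2(TPM + 1) the difference was 0.015, against the median of -0.14 for all genes.

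Asns encodes asparagine synthetase, a classic ATF4 target (chromosome 6, 7675169 to 7693254). Young mice had 84.2, 86.2, 84.2, 80.6 and 82.1 CPM, and old mice 80.1, 72.2, 83.8 and 71.6 CPM. Of the old mice, 3 were below all young mice, and old 4 lay within the young range. The log2 fold change was -0.12 (SE 0.049, 95% interval -0.22 to -0.011, edgeR adjusted p = 0.147). With each mouse left out, the adjusted p ran from 0.0478 (without old 4, at -0.16) to 0.357, and 1 of 9 fits passed. The young mice varied by 2.61%, close to counting (2.60%), and the old by 7.83%, above counting (2.75%).

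Trib3, a pseudokinase that ATF4 and CHOP induce, was barely detected (chromosome 2, 152337422 to 152344032). It had 20, 18, 12, 15 and 10 counts in the young and 18, 7, 22 and 20 counts in the old libraries. These correspond to 0.618 to 1.05 CPM and 0.494 to 1.20 CPM, and the ages overlapped. The log2 fold change of 0.20 had a 95% interval from -0.38 to 0.79 (edgeR adjusted p = 0.689). The spread in young mice (21.4%) was below that of counting (25.8%), and that in old mice (34.3%) above it (24.4%).

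Ppp1r15a encodes GADD34, the inducible subunit that leads a phosphatase back to eIF2 and so ends the response (chromosome 7, 45522916 to 45526268). Young mice had 14.6, 13.9, 13.3, 11.2 and 14.0 CPM, and old mice 14.0, 14.2, 14.1 and 13.7 CPM. The old mice lay inside the young range and varied by 1.54%, below counting (6.47%). Young 4 was here the lowest of the 9 mice. The log2 fold change was 0.063 (SE 0.080, edgeR adjusted p = 0.669) and without young 4 -0.00067. Ppp1r15a and Tulp2 share 12 exon bases on opposite strands.

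**Figure D2:**
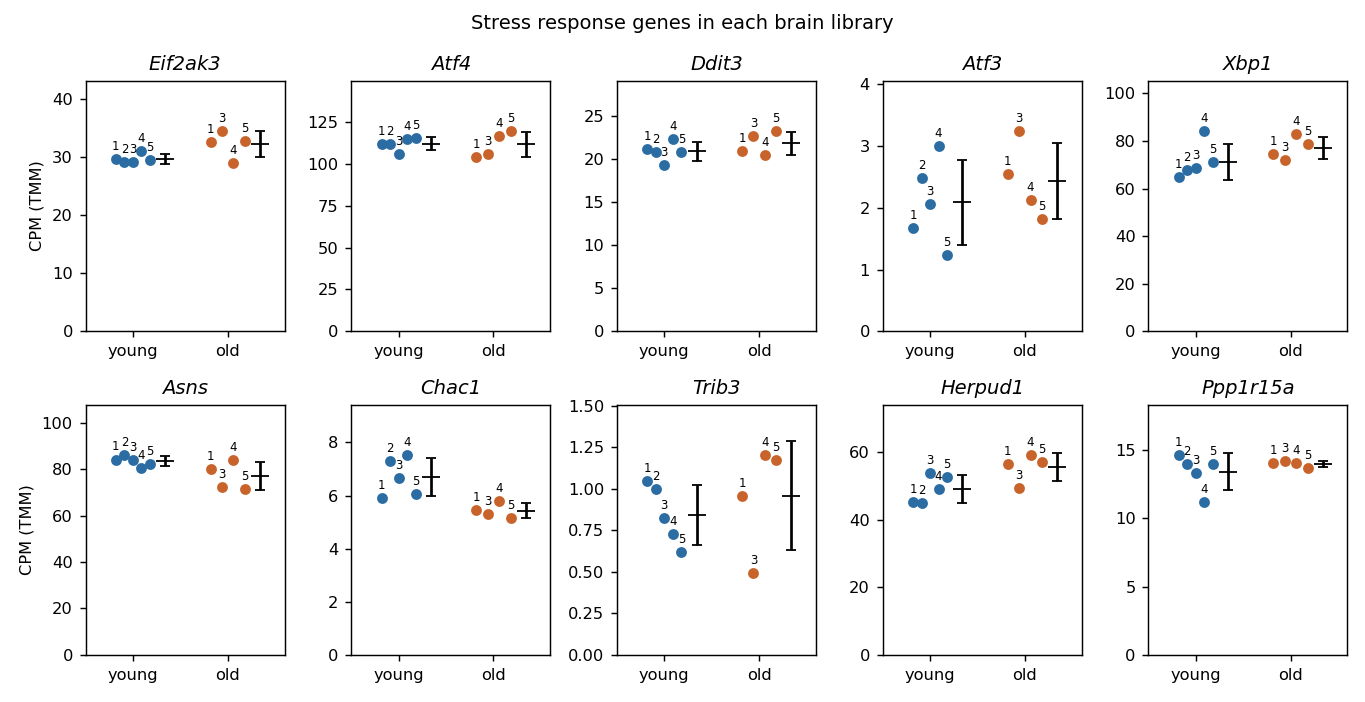
CPM after TMM scaling (vertical axes, each from 0) of the 10 genes in each of 5 young (blue) and 4 old (orange) brains. Small digits beside the points are the mouse numbers, and the black bars give the mean ± SD of each age. Only Chac1 shows no overlap between ages, with 5.17 to 5.80 CPM in old against 5.91 to 7.54 in young mice, and young 4 is the highest mouse for Xbp1 (84.2) and the lowest for Ppp1r15a (11.2).

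Levels were compared between genes on the TPM scale, which divides by gene length. Across the 9 mice the order from highest to lowest mean TPM was Atf4, Asns, Xbp1, Herpud1, Ddit3, Eif2ak3, Ppp1r15a, Chac1, Atf3 and Trib3. Atf4 ranged from 126.1 to 210 TPM and was above Asns (54.1 to 105 TPM) in 9 of 9 mice, by 1.997- to 2.65-fold. Xbp1 (45.6 to 72.1 TPM) and Herpud1 (43.5 to 78.6 TPM) could not be ordered, since Xbp1 was the higher in 5 of 9 mice. Ddit3 followed at 27.0 to 38.4 TPM, between 2.26 and 2.54 times Eif2ak3 in every mouse. Eif2ak3 (10.8 to 16.4 TPM) exceeded Ppp1r15a (8.30 to 15.5 TPM) in 8 of 9 mice, and Ppp1r15a exceeded Chac1 (6.62 to 13.9 TPM) in 8 of 9. Atf3 (1.29 to 3.26 TPM) and Trib3 (0.476 to 1.34 TPM) were at the bottom in each mouse. The ratio of Atf4 to Trib3 in a mouse ran from 119 to 265. Dividing CPM by the exon length of each gene gave the same order but not the same ratios. Atf4 and Asns stood closer there, with means of 47.5 and 29.5 CPM per kilobase.

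**Figure D3:**
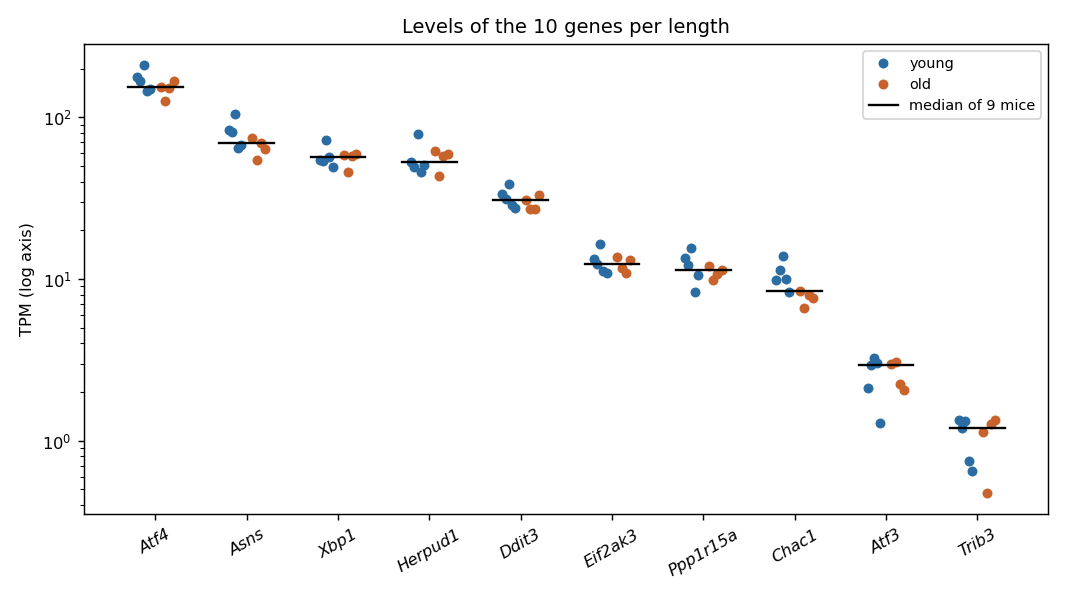
TPM (log axis) of the 10 genes in order of their mean over 9 mice. Blue points are young and orange points old brains, and the black line is the median of the 9 mice. Atf4 lies at 126.1 to 210 TPM and Trib3 at 0.476 to 1.34 TPM, while Xbp1 and Herpud1 overlap.

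The other genes of these pathways were taken as 7 lists of 115 genes, of which 111 were tested. Of these, 12 (10.8%) passed the test, 7 higher and 5 lower in old brains, close to the 11.0% of all genes. The median log2 fold change over the 111 genes was -0.013. On log2(TPM + 1) only 1 of them passed (Casp12), and on the count scale 2 also had an absolute log2 fold change over 0.58 (Casp12 and Eif2ak2).

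Upstream, 1 of 13 genes for eIF2, its kinases, its exchange factor and its phosphatase passed, with a list median of 0.014. This was Eif2ak2, which encodes PKR, the eIF2 kinase that binds double-stranded RNA and is itself induced by interferon. Young mice had 8.52, 7.03, 8.38, 8.74 and 8.46 CPM, and old mice 11.8, 17.1, 12.8 and 11.4 CPM. All old mice were above all young mice, and the gene rose by 0.68 on the log2 scale (SE 0.117, edgeR adjusted p = 0.00264). On the opposite strand it overlaps Gm26637 and n-R5s29. Eif2s1, the subunit of eIF2 that the kinases phosphorylate, stood at -0.16 on the log2 scale (adjusted p = 0.0574).

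Of 14 tested sensors, their proteases and partner bZIP factors, 0 passed in edgeR and 0 in DESeq2, and 4 had an unadjusted p under 0.05 in edgeR. The list median was 0.061. Ern1, which encodes IRE1, had 17.8 to 19.95 CPM in young and 20.1 to 23.2 CPM in old mice without overlap, at a log2 fold change of 0.20 with an adjusted p of 0.0504, just above the threshold of 0.05. It passed in 2 of 9 fits with a mouse left out, without old 5 (adjusted p = 0.0395) and without young 4 (0.0463). Atf6 had 0.053 (adjusted p = 0.554, and -0.10 on log2(TPM + 1)). Rtcb, the ligase that joins the Xbp1 exons after the cut by IRE1, had 0.11 (adjusted p = 0.0930). It passed in 1 of 9 fits with a mouse left out (0.0403, without old 5).

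Of the 8 genes linked to CHOP and apoptosis, 1 passed, with a list median of 0.044. Casp12, an ER-associated caspase of rodents, rose by 1.21 on the log2 scale (SE 0.226, adjusted p = 0.00426). Young mice had 1.99, 0.885, 1.24, 1.55 and 1.54 CPM, and old mice 3.61, 2.75, 4.43 and 2.58 CPM, from at most 81 counts in a library. The lowest old mouse was above the highest young one. Bcl2l11 (BIM), a death gene that CHOP can induce, differed by 0.15 on the log2 scale (adjusted p = 0.318).

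ATF4 targets of amino acid and one-carbon metabolism held 8 of the 12 calls: 4 of 22 tested genes rose and 4 fell, with a list median of -0.095. Those that rose were Slc38a2, a neutral amino acid transporter (0.34, SE 0.081, adjusted p = 0.0152), Gpt2, mitochondrial alanine aminotransferase (0.28, SE 0.047, adjusted p = 0.00224), and Psat1 (0.25, SE 0.049, adjusted p = 0.00529) and Phgdh (0.23, SE 0.053, adjusted p = 0.0148), both enzymes of serine synthesis. Those that fell were Slc6a9, the glycine transporter GlyT1 (-0.30, SE 0.058, adjusted p = 0.00600), Slc1a4, a neutral amino acid transporter (-0.21, SE 0.049, adjusted p = 0.0152), Vldlr, a lipoprotein and reelin receptor (-0.17, SE 0.039, adjusted p = 0.0151), and Slc7a1, a cationic amino acid transporter (-0.16, SE 0.048, adjusted p = 0.0428). Psat1 can serve to show their size, with 97.5 to 104 CPM in young and 108 to 131 CPM in old mice. Slc6a9 had 69.4 to 79.6 CPM in young and 52.7 to 64.0 CPM in old mice, again without overlap. It overlaps exons of Ccdc24, Gm17114 and B4galt2 on the opposite strand. Phgdh, Slc1a4, Vldlr and Slc7a1 are named here after their values were seen. Of the 13 aminoacyl-tRNA synthetases, which ATF4 also drives, 0 passed in edgeR and 2 had an unadjusted p under 0.05. These were Wars (-0.12, edgeR adjusted p = 0.0570), which DESeq2 called, and Gars (-0.088, adjusted p = 0.137). In edgeR, Wars passed in 1 of 9 fits with a mouse left out (adjusted p = 0.0414, without old 4). The list median was -0.042.

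Promoters were set beside these changes through the same letters. A CARE core was present in 359 tested genes, of which 25 were higher and 18 lower in old brains, 11.98% in all. In the lists, it stood in 5 of 8 promoters of aminoacyl-tRNA synthetases and 5 of 20 of ATF4 targets. Matches on chromosome 18 were left out of all counts by list, so a listed gene there counted as having none. The counts over all genes left out no matches. The called share equals that of the 12583 tested genes that had any promoter in the table (11.98%), and the medians were -0.0058 and -0.0033. An ERSE was present in 8 of 18 ER chaperone genes with a promoter, against 0.137% of all genes. Of the 20 tested genes with an ERSE, 1 was higher and 3 were lower in old brains, with a median of -0.077.

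**Figure D4:**
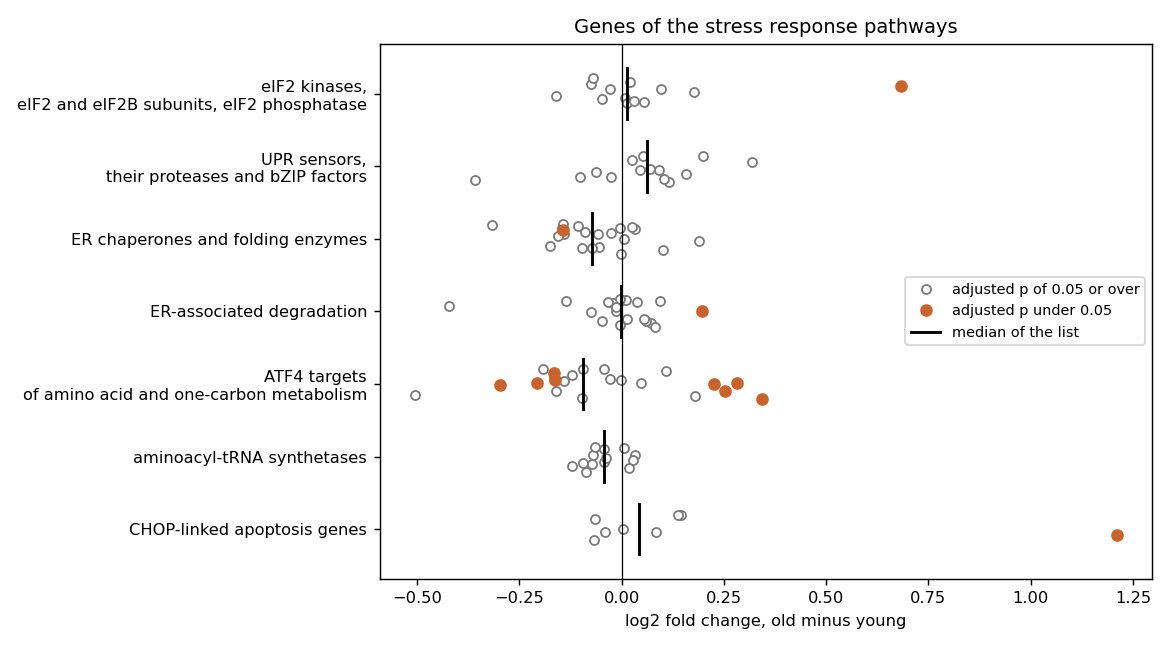
Log2 fold change of old against young brains (horizontal axis) for the 111 tested genes of 7 pathway lists. Filled points passed the test (edgeR adjusted p under 0.05), open points did not, and black lines are the list medians. Of the 12 filled points 8 belong to the ATF4 targets, 4 on each side of 0, and the point farthest right is Casp12 (1.21).

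ER chaperones and folding enzymes, the output of the ATF6 and XBP1 branches, held 1 call among 21 genes in edgeR, a lower one. Of the 21, 6 had an unadjusted p under 0.05, 16 had a negative log2 fold change, and the median was -0.072. Fkbp2, a folding isomerase of the ER, fell by 0.14 on the log2 scale (SE 0.041, adjusted p = 0.0385), with 66.1 to 71.5 CPM in young and 58.5 to 64.6 CPM in old mice. Hspa5, which encodes BiP, the main ER chaperone and the usual readout of this response, had 243, 202, 253, 333 and 234 CPM in young and 228, 224, 256 and 243 CPM in old mice. Young 4 was far above the rest, and the other young mice and the old mice overlapped. With all mice Hspa5 differed by -0.090 on the log2 scale (SE 0.105, adjusted p = 0.639).

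The chaperones as a list were highest in 1 young brain rather than in the old ones. Young 4 was the highest of the 9 mice for 13 of 21 chaperone genes, where it was the highest for 9.50% of all tested genes. Its Pdia4, a disulfide isomerase, stood at 57.4 CPM, where the other young mice had 37.3 to 41.7 CPM and old mice 41.1 to 49.9 CPM. Its Calr (calreticulin) stood at 376 CPM beside 280 to 313 and 267 to 294 CPM, and its Sdf2l1 at 17.9 CPM beside 9.63 to 11.5 and 10.7 to 15.05 CPM. Relative to the mean of young 1, 2, 3 and 5 on the log2 scale, the median of the 21 genes was 0.23 in young 4, between -0.084 and 0.035 in those 4 mice, and between -0.063 and 0.043 in the old mice. Of the 21 genes, 19 were above that mean in young 4, and Cdnf was the farthest below it (1.06 CPM against 1.58 to 2.04 in the other young mice). It was also the highest mouse for 5 of 20 genes of ER-associated degradation, 2 of 22 ATF4 targets, 0 of 13 genes of the eIF2 list and 2 of the 10 members (Xbp1 and Chac1). This mouse was looked at after its glial marker levels and chaperone values had been seen, so the counts describe it and are no test.

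Leaving out young 4 moved the age comparison of this list. The median went from -0.072 to -0.031, and 9 genes in place of 5 had a positive log2 fold change. Fkbp2 no longer passed (adjusted p = 0.0777). Dnajc3, an ER co-chaperone that also inhibits PERK, passed in its place and rose by 0.24 on the log2 scale (SE 0.052, adjusted p = 0.00993), where with all mice it had 0.19 (adjusted p = 0.0602). It also passed without old 1 (adjusted p = 0.0315), and DESeq2 called it with all mice (adjusted p = 0.0484). Hspa5 went from -0.090 to 0.031 (adjusted p = 0.816) and did not pass either way.

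**Figure D5:**
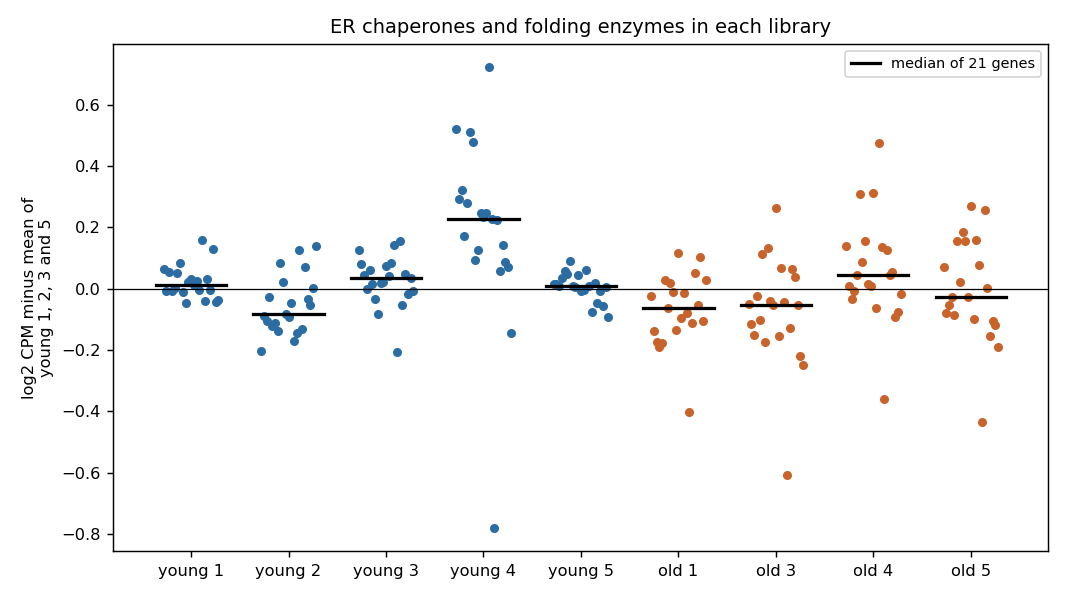
Log2 CPM of 21 ER chaperone and folding enzyme genes in each library, minus the mean of young 1, 2, 3 and 5 (vertical axis). Each point is a gene, blue in young and orange in old brains, and black lines are the medians. The median of young 4 is 0.23 and those of the other 8 libraries lie between -0.084 and 0.043.

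In ER-associated degradation, 1 of 20 genes passed, with a list median of -0.0013. Edem1, a lectin that hands misfolded glycoproteins to degradation and an XBP1 target, rose by 0.20 on the log2 scale (SE 0.055, adjusted p = 0.0323). Young mice had 23.7 to 26.2 CPM and old mice 26.6 to 30.6 CPM, without overlap. With each mouse left out in turn it passed in 2 of 9 fits, and the same count held for Fkbp2. Sel1l, the scaffold of the ER ubiquitin ligase, differed by -0.14 on the log2 scale (adjusted p = 0.0870). It passed in 1 of 9 such fits (0.0484, without young 5).

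Markers of neurons, glia and vessels were present in every library, and no marker of the 12 lists of cell types and sources was at 0 in a library. Neuron markers summed to 4577 to 4982 CPM in young and 4479 to 4690 CPM in old mice, and astrocyte markers to 3118 to 3465 and 3234 to 3356 CPM, so these sums overlapped. Within the neuron list, 2 of 5 genes fell, Stmn2 (-0.27, edgeR adjusted p = 0.00252) and Map2 (-0.14, adjusted p = 0.0339), both without overlap between ages. Homeostatic microglia markers summed to 258 CPM in young 4, to 179 to 195 CPM in the remaining young mice and to 245 to 267 CPM in old mice. The sum of oligodendrocyte precursor markers was 117 to 125 CPM in young and 100 to 106 CPM in old mice. Of its 4 genes only Gpr17 passed (mean 38.8 to 21.9 CPM, edgeR adjusted p = 1.1e-05). Neu4 (-0.31 on the log2 scale, adjusted p = 0.0503, just above the threshold) and Cspg4 (-0.11, adjusted p = 0.270) were lower without passing. Pdgfra differed by 0.051 (adjusted p = 0.610). The endothelial sum was 154 to 164 and 167 to 196 CPM, with Pecam1 (0.38, adjusted p = 0.00106) and Flt1 (0.25, adjusted p = 0.0277) higher in old mice, and Cldn5 (-0.14, adjusted p = 0.374) and Tek (-0.0089, adjusted p = 0.955) not passing. Blood cell markers were higher in all old mice (128 to 409 against 86.1 to 116 CPM), and all 5 of these genes rose. Oligodendrocyte markers (4953 to 5798 in young and 5180 to 6503 CPM in old mice) and choroid plexus markers (529 to 691 and 434 to 738 CPM) overlapped. Genes of B and plasma cells summed to 0.940 to 1.64 and 1.69 to 15.6 CPM. The part of these cell classes in the values of Casp12, Eif2ak2, Edem1 and the amino acid genes was not tested.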

How the data were processed

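RNA-seq of 5 young and 4 old brains was used as deposited. The study used 5 old mice. In each deposited file 1 column is headed as old replicate 2, which is not among the samples listed for this work, so that brain was not analysed here. The study's methods describe trimming with Trimmomatic, alignment to GRCm38 with STAR, and featureCounts on uniquely mapped reads in exons. The processing notes name mm10 and DESeq2. The authors deposited raw counts per Ensembl gene ID without normalization. The authors' normalized counts are a signal in which each library was divided by 1 size factor, and the TPM values deposited by the authors used gene lengths not given in the sources used here. Strand-specific counting is stated only for strand-specific libraries, so overlapping genes on the opposite strand are named.

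Symbols, positions and exon lengths came from GENCODE M21, and 259 gene IDs had no symbol. Genes were kept with filterByExpr (minimum count 10, minimum total 15), scaled with TMM, and tested with edgeR's quasi-likelihood test and Benjamini-Hochberg adjustment at 0.05. CPM are given after TMM, and mean ± SD is over mice. Alternatives were DESeq2, limma, other scalings and filters, the replicate number as a block, and each mouse left out. Libraries of one age differed by more than sampling noise (chi-square per degree of freedom at least 4.04), so each counted as 1 replicate. Simulated counts were used to check the edgeR fit (edgeR 4.0.16 in R 4.3.3, with limma 3.58.1 and DESeq2 1.42.0).

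The members, the 7 pathway lists and the 12 marker lists were chosen with earlier results of these data known. Named were the members, Hspa5, Ern1 and Atf6, and from each pathway list up to 4 genes under the adjusted p threshold by size of change, filled up to 2 by lowest p. Other named genes were chosen after their values were seen. Transcripts of the members shared no other stretch of at least 100 bases at 85% identity with another annotated gene than those of Ddit3 with Gm22002 (107 bases), its second gene ID and those of Eif2ak3 with Gm43292. Intervals rest on the fitted spread between mice.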

Additional observations from a re-analysis of the deposited data

Results flagged for a closer look

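In groups of 4 or 5 mice, a mouse was singled out where its gap to the nearest other mouse took an unusually large share of the range of its age (Dixon's ratio). Of 124 such groups 12 were singled out, where chance gives about 6.2, so several may be chance. Young 4 stood high in 7 of them. Its Eif2ak3 was 31.0 CPM against 29.1 to 29.5 in the other young mice. Among ER chaperones, its Hyou1 was 153 CPM (others 125 to 133), its Pdia4 57.4 CPM (37.3 to 41.7) and its Sdf2l1 17.9 CPM (9.63 to 11.5). Its summed markers were 627 CPM for reactive astrocytes (256 to 295), 258 CPM for homeostatic microglia (179 to 195) and 55.2 CPM for activated microglia (11.2 to 12.97). The remaining values were Eif2ak2 in young 2, low at 7.03 CPM (8.38 to 8.74), Canx in old 1, low at 331 CPM (370 to 375), and Slc7a1 in old 4, high at 56.6 CPM (54.2 to 54.4). The neuron marker sum was low in old 4 at 4479 CPM (4673 to 4690), and the astrocyte marker sum high in old 3 at 3356 CPM (3234 to 3243). No cause was tested.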

How the results depend on the processing

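Other scalings and filters left the members at 0 calls. The count of all genes (2039) became 594 on log2(TPM + 1), 600 on log2(TPM + 0.1) and 495 with an absolute log2 fold change over 0.58 as well. That of the pathway genes (12) became 1, 1 and 2. With each mouse left out, the counts ran from 1454 to 1942 for all genes, 0 to 1 for the members (1 without young 4, old 3 or old 4) and 9 to 13 for the pathway genes. Robust estimation, chosen after seeing the data, called 2031 genes, 0 members and 11 pathway genes, Slc38a2 being lost (adjusted p = 0.0572). Without the filter on low counts Edem1 was lost (adjusted p = 0.0636), and Sel1l (0.0449) and Dnajc3 (0.0350) passed, and at a minimum count of 30 Ern1 passed (0.0372).

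Directions turned on log2(TPM + 1) and log2(TPM + 0.1), where the median of all genes was -0.14 and -0.16: Ddit3 (-0.10 and -0.10), Trib3 (-0.0026 and -0.025), Xbp1 (-0.047 and -0.048), Eif2ak3 (-0.046 and -0.049), Ppp1r15a (-0.092 and -0.097), Atf6 (-0.10 and -0.11), Bcl2l11 (-0.015 and -0.015) and Rtcb (-0.052 and -0.053). Atf4 turned to 0.00054 at a minimum count of 30. With each mouse left out it ran from -0.041 to 0.030 (0.0030 without young 4, 0.0075 without young 5, 0.030 without old 1, 0.016 without old 3), and Ppp1r15a from -0.00067 (without young 4) to 0.10. Hspa5 turned to 0.031 without young 4. In every member but Trib3, young 3 had the highest TPM of all mice (210 in Atf4). The CPM of young 3 in Atf4 was 106, below the other young mice (112 to 115). The part of this library in the turned directions was not tested, nor was any other cause.

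The replicate number as a block (young 2 had no partner) called 1687 genes, 0 members and 13 pathway genes. Edem1 (adjusted p = 0.0657) and Fkbp2 (0.0788) were lost in it. Mice of the same number correlated at 0.17, -0.12, 0.088 and -0.024, and 1 of 4 old mice was nearest to its own number. The number was therefore not treated as a pairing, although 4 such values cannot settle whether it is one. No member fell below the filter, so no separate test was needed. Trib3 and Atf3 had the fewest counts and the widest intervals.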
